A study of Mus musculus with 7 samples.

Results

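The antioxidant and Nrf2 target genes described here are 40 genes taken by symbol from a list of Nrf2 and its regulators, glutathione, thioredoxin and peroxiredoxin genes, superoxide dismutases and NADPH supply enzymes. All 40 were listed among the 23337 genes of each library. RNA was sequenced from macrophages that had been raised in culture out of mouse marrow with M-CSF, the cytokine that drives this lineage (7 days at 25 ng/ml); the donors were male and 6 to 8 weeks old. Tgm2, the gene removed in the knockout mice, encodes the protein-crosslinking enzyme transglutaminase 2. The groups were knockout cells given the bacterial cell wall component lipopolysaccharide (LPS, 10 ng/ml for 6 hours; KO LPS, n = 2), wild-type cells given the same LPS (WT LPS, n = 2), knockout cells without LPS (KO M0, n = 1) and wild-type cells without LPS (WT M0, n = 2). All 4 groups had the same M-CSF culture. No source used here gives the strain, the design of the knockout allele or whether the replicates are separate animals or cultures. The p-values therefore rest on the spread among these libraries, and that spread may be only technical.

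Nrf2, encoded by Nfe2l2, is a transcription factor that Keap1 marks for degradation in unstressed cells. Oxidants and electrophiles modify Keap1, Nrf2 then builds up, pairs with a small Maf protein and binds antioxidant response elements, sites that the repressor Bach1 can occupy instead. Its targets make and recycle glutathione, reduce thioredoxin and peroxiredoxins, break down haem and quinones, and supply the NADPH that these reactions use. In macrophages LPS activates both NF-kappaB and Nrf2, and several antioxidant genes, among them Sod2, are known NF-kappaB targets.

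The antioxidant response element has the core TGACNNNGC, which was searched on both strands of RefSeq promoter windows (build GRCm38.p6) that reach from 250 bases before to 50 bases after a gene's start. Windows were at hand for 34 of the 40 genes, and 12 of these 34 genes (35.3%) had the core, against 14% of the 27025 genes with a window. By window, 12 of 46 (26.1%) held it, against 12.4% of 32851. Among the genes called lower in KO LPS than in WT LPS that had a window, 3 of 6 held it, and among the remaining 28 genes 9 did. Gclc, also called lower, had no window, nor had Hmox1, Gsr, Abcc1, Prdx6 and Sod3. In Srxn1, 1 of the 3, the core lies 28 to 36 bases after the start. Many of the genes were listed as Nrf2 targets, so a share above that of all genes is not a separate result. The sequences shown are those upstream of the start in 2 genes that were lower in KO LPS, Gclm and Prdx1, and in 2 genes of the transcription factor complex itself, Nfe2l2 and Maff. They run 5′ to 3′ along the gene's strand, with the matched core in capitals; in Gclm and Prdx1 the core lies on the opposite strand, so its reverse complement is in capitals.
Gclm (chr3:122245398-122245456, plus strand): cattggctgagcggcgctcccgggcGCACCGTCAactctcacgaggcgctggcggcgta
Prdx1 (chr4:116685441-116685499, plus strand): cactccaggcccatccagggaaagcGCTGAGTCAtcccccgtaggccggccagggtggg
Nfe2l2 (chr2:75704870-75704913, minus strand): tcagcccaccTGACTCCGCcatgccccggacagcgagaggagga
Maff (chr15:79346484-79346542, plus strand): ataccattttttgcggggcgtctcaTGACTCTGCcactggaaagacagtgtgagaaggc

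Counted from the start that each window uses, the core began 134 bases before it in Gclm, 133 in Prdx1, 240 in Nfe2l2 and 112 in Maff. For Gclm that start lies inside the gene's RefSeq span, whose first base is 122245487. The Gclm core, at 122245423 to 122245431, is therefore nearer to that first base. In Prdx1 the match, read on the opposite strand as TGACTCAGC, also contains the AP-1 motif TGANTCA, which was found in 7.81% of all windows. A match describes the letters of these windows and not binding.

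Tgm2 checked the labels. It stood at 19.4 and 19.2 TPM in KO LPS, against 233 and 199 in WT LPS, and at 50.7 TPM in KO M0, against 433 and 368 in WT M0. The deposited values carry no unit and were taken as TPM, which correct for transcript length, because every library sums to 1000000 and the smallest values above 0 differ between genes; levels are compared between genes on that reading, and sequencing depth is unknown. Both WT LPS libraries went against the male label: Xist, the RNA that silences an X chromosome in female cells, was at 47.2 and 55.4 TPM there, and at most 0.00535 TPM in the other 5 libraries, while the Y-linked Ddx3y was at 20.3 and 23.5 TPM in WT LPS and between 32.2 and 56.4 in the other 5. Every result that uses WT LPS carries this difference, whose part in it was not tested. WT M0 replicate 1 also stood apart, by transcript length. Across 9643 genes its difference from WT M0 replicate 2 fell with length (Spearman's rho -0.48, against -0.145 between the KO LPS replicates and -0.0867 between the WT LPS replicates). The median absolute log2 difference was 0.221 between the WT M0 replicates, 0.197 between those of KO LPS and 0.196 between those of WT LPS. Between KO M0 and WT M0 replicate 2 it was 0.0959. WT M0 replicate 1 enters every comparison with WT M0, and its part in them was not tested. Values without it are given where a call of the 40 genes is lost. Of the macrophage markers listed, 7 of 7 were above 1 TPM in some library, and Lyz2 was between 28490 and 42150 TPM. Erythroid markers, listed because red cell precursors hold much peroxiredoxin 2 and catalase, summed to at most 0.509 TPM, with Hba-a1 and Slc4a1 at 0 in all 7 libraries.

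In levels, 4 of the 40 genes (Prdx1, Prdx5, Sqstm1 and Hmox1) averaged at least 1000 TPM over the 7 libraries, 23 averaged between 100 and 1000, 12 between 1 and 100, and Sod3 less. Sod3, the secreted superoxide dismutase, stood at 0.206 and 1.03 TPM in KO LPS, is listed at 0 and stood at 0.0672 in WT LPS, and was at 0.767 in KO M0 and 1.80 and 1.24 in WT M0. It was left out of the tests by the filter on low values (a mean of at least 1 TPM), which the other 39 genes passed. Prdx4 and G6pdx are on the X chromosome.

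Under LPS the knockout libraries held less transcript of 7 of the 39 tested antioxidant genes than the wild-type libraries, and more of 1. Gclc, Gclm, Gss, Nqo1, Prdx1, Srxn1 and Taldo1 were lower, by log2 fold changes from -1.39 to -0.55, and Prdx4 was higher by 0.73. Nfe2l2 itself and its regulators did not pass. The test was limma on log2(TPM + 1), with Benjamini-Hochberg adjustment over 11096 genes, and a gene is called when its adjusted p is under 0.05. Of all genes tested 7.16% were called in KO LPS vs WT LPS, 2.58% lower and 4.59% higher, against 20.5% of these 39 genes, 17.9% lower and 2.56% higher. The median log2 fold change was -0.22 over the 39 genes and 0.03 over all genes tested. At an unadjusted p under 0.05 were 16 of the 39, against 20.0% of all genes.

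**Figure D1:**
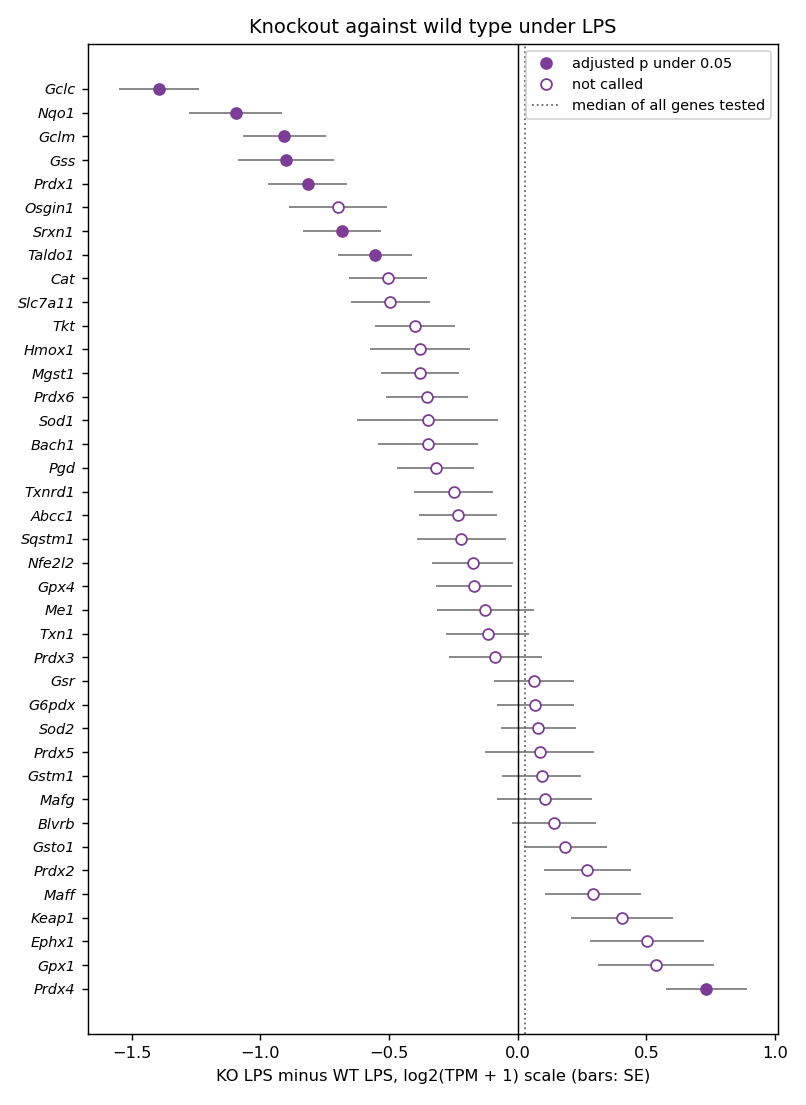
Difference between KO LPS and WT LPS (log2 fold change on the log2(TPM + 1) scale, x axis) for each of the 39 tested genes, ordered from the most negative; bars are SE, filled points have an adjusted p under 0.05 and the dotted line is the median of all genes tested. Gclc is farthest to the left at -1.39 and Prdx4 farthest to the right at 0.73, and 25 of the 39 points lie below 0.

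Of the 5 genes for glutathione synthesis and recycling 3 were lower in KO LPS than in WT LPS, and these are the 3 that encode the synthesis enzymes (2.58% of all genes were called lower). With LPS 3 of the 5 rose in knockout, where 13.8% of all genes did, and 5 of 5 in wild type, where 15.0% did, a comparison that shares its WT LPS libraries with the one between genotypes. Gclc (chromosome 9, 77754535 to 77794489 in GRCm38) encodes the catalytic subunit of glutamate-cysteine ligase, the rate-limiting step of glutathione synthesis. It stood at 63.1 and 64.3 TPM in KO LPS, against 162 and 177 in WT LPS, and at 78.1 TPM in KO M0, against 72.0 and 81.9 in WT M0. Both KO LPS libraries thus lay below all 3 libraries without LPS, and both WT LPS libraries above them. The log2 fold change of KO LPS vs WT LPS was -1.39 (SE 0.15, limma adjusted p 0.00047). LPS raised Gclc in wild type, by 1.13 (SE 0.15, adjusted p 0.0002), while the change in knockout cells was -0.29 (SE 0.19, adjusted p 0.25). The difference between these LPS changes was -1.42 (SE 0.24, adjusted p 0.023), and Gclc was the 1 gene of the 39 that passed this test, which called 1.37% of all genes (9 of the 39 and 10.5% of all genes had an unadjusted p under 0.05). It missed the threshold without KO LPS replicate 1 (0.0585) or 2 (0.0541), WT LPS replicate 2 (0.0852), or WT M0 replicate 1 (0.115) or 2 (0.0515), and with no filter on low values (0.107), the difference itself staying between -1.51 and -1.33.

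Gclm (chromosome 3, 122245487 to 122267215), whose upstream sequence is shown above, encodes the modifier subunit of the same ligase. It stood at 325 and 271 TPM in KO LPS, against 567 and 548 in WT LPS, and at 201 TPM in KO M0, against 191 and 226 in WT M0. Both LPS groups lay above the libraries without LPS, and KO LPS below WT LPS (log2 fold change -0.91, SE 0.16, limma adjusted p 0.0069). The LPS change of Gclm was 0.56 (SE 0.20, adjusted p 0.046) in knockout and 1.42 (SE 0.16, adjusted p 5.4e-05) in wild type. Gss, glutathione synthetase, stood at 12.6 and 10.6 TPM in KO LPS, against 23.9 and 21.1 in WT LPS, and at 10.9 TPM in KO M0, against 14.9 and 13.4 in WT M0. Here WT LPS alone lay above the 3 libraries without LPS, and the difference between KO LPS and WT LPS was -0.90 (SE 0.19, adjusted p 0.016). Both genes missed the threshold with no filter (0.0597 for Gclm, 0.0703 for Gss) and without KO LPS replicate 2 (0.0525 and 0.129), WT LPS replicate 1 (0.0560 and 0.0877) or WT LPS replicate 2 (0.0554 and 0.0527).

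**Figure D2:**
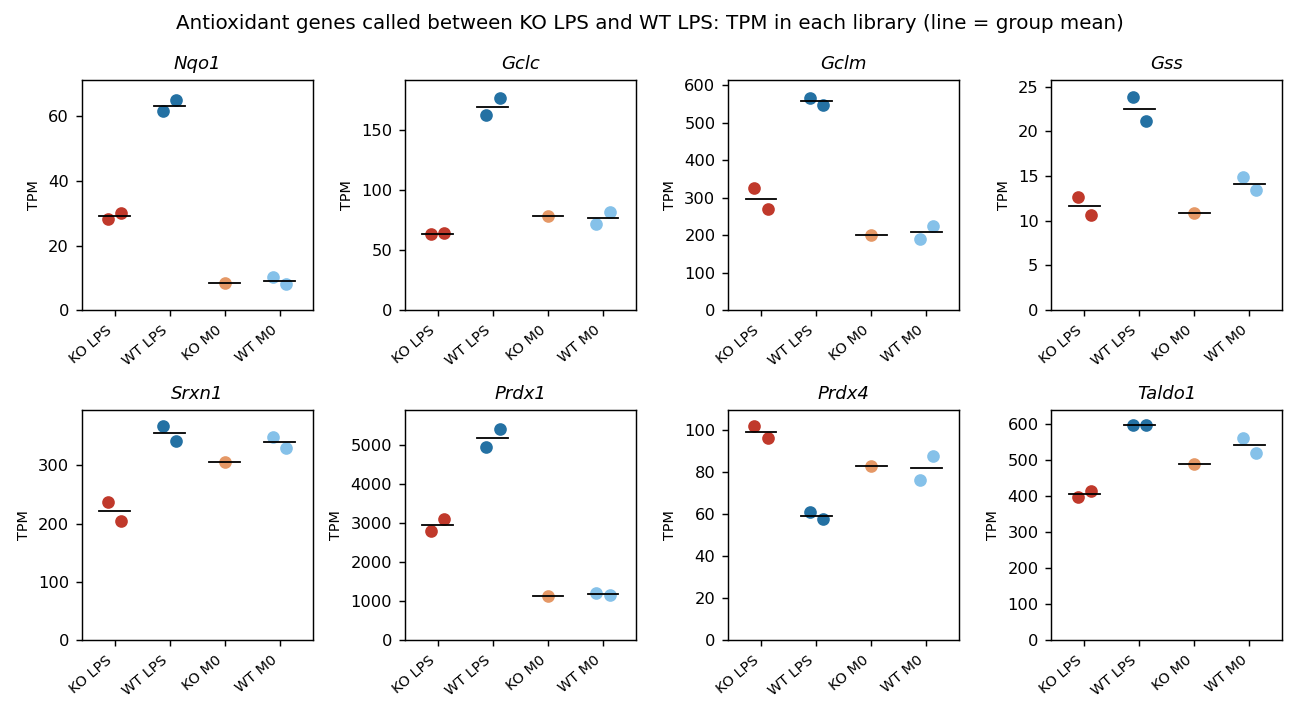
TPM (y axis, linear from 0) of the 8 genes called between KO LPS and WT LPS, with a point for each library and a line at each group's mean; KO M0 is a single library. In 7 panels both KO LPS points lie below both WT LPS points, as for Nqo1 at 28.2 and 29.9 against 61.5 and 65.1 TPM, and in the Prdx4 panel they lie above them.

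Nqo1 (chromosome 8, 107388225 to 107403205) encodes a quinone reductase that is widely read as a reporter of Nrf2 activity. It was higher after LPS in both genotypes, and less so in the knockout libraries: 28.2 and 29.9 TPM in KO LPS, against 61.5 and 65.1 in WT LPS, with 8.55 TPM in KO M0, against 10.2 and 8.06 in WT M0. The log2 fold change of KO LPS vs WT LPS was -1.10 (SE 0.18, limma adjusted p 0.0046), and with Gclc it was 1 of 2 genes that passed under every alternative run. The LPS change was 1.66 (SE 0.22, adjusted p 0.00021) in knockout and 2.67 (SE 0.18, adjusted p 1.4e-06) in wild type, and their difference of -1.02 did not pass (adjusted p 0.15). Hmox1, haem oxygenase 1, stood at 1899 and 1329 TPM in KO LPS, against 2224 and 1926 in WT LPS. Its ranges did not overlap, but the difference of -0.38 (SE 0.19) did not pass (adjusted p 0.32).

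Peroxiredoxins reduce peroxides, most of them with electrons from thioredoxin. Of the thioredoxin system and the peroxiredoxins 2 of 9 were lower in KO LPS and 1 was higher, against 2.58% and 4.59% of all genes. Prdx1 (chromosome 4, 116685599 to 116700000), a cytosolic peroxiredoxin with the highest mean of the list over the 7 libraries, stood at 2795 and 3104 TPM in KO LPS, against 4968 and 5411 in WT LPS, and at 1126 TPM in KO M0, against 1223 and 1164 in WT M0. Both LPS groups lay above every library without LPS, and KO LPS lay below WT LPS (log2 fold change -0.82, SE 0.15, limma adjusted p 0.0096). The LPS change of Prdx1 was 1.39 (SE 0.19, adjusted p 0.00024) in knockout and 2.12 (SE 0.15, adjusted p 2.3e-06) in wild type. Srxn1, sulfiredoxin, which repairs overoxidised peroxiredoxins, stood at 238 and 205 TPM in KO LPS, against 368 and 343 in WT LPS, and at 306 TPM in KO M0, against 349 and 330.1 in WT M0. For Srxn1 KO LPS lay below all other libraries, and WT LPS overlapped WT M0 (KO LPS vs WT LPS -0.68, SE 0.15, adjusted p 0.022).

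Prdx4 (chromosome X, 155323918 to 155342272), a peroxiredoxin of the endoplasmic reticulum, went the other way. It stood at 102 and 96.2 TPM in KO LPS, against 61.0 and 57.4 in WT LPS, and at 82.7 TPM in KO M0, against 76.0 and 87.5 in WT M0. KO LPS lay above and WT LPS below every library without LPS (KO LPS vs WT LPS 0.73, SE 0.16, limma adjusted p 0.019). G6pdx, the other X-linked gene of the list, stood at 235 and 207 TPM in KO LPS, against 203 and 218 in WT LPS. With no filter Prdx1 (0.0884), Srxn1 (0.0689) and Prdx4 (0.0531) missed the threshold. Without WT LPS replicate 1 they stood at 0.0510, 0.143 and 0.0750, and without WT LPS replicate 2 at 0.117, 0.116 and 0.148. Srxn1 also missed it without KO LPS replicate 2 (0.134), and Prdx4 without KO LPS replicate 1 (0.0897) or 2 (0.0696).

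Among the genes listed under NADPH supply, Taldo1 was lower in KO LPS. It encodes transaldolase of the pentose phosphate pathway, which like transketolase does not itself make NADPH. It stood at 399 and 415 TPM in KO LPS, against 597 and 599.5 in WT LPS, and at 491 TPM in KO M0, against 562 and 521 in WT M0. The difference was -0.55 (SE 0.14, limma adjusted p 0.044), and it missed the threshold with median-ratio scaling (0.0551), with no filter (0.0713) and without any single library of KO LPS (0.138 and 0.123), WT LPS (0.191 and 0.256) or WT M0 (0.0547 and 0.0556). Tkt, transketolase, and Pgd, 6-phosphogluconate dehydrogenase, had differences of -0.40 (adjusted p 0.18) and -0.32 (adjusted p 0.27), and G6pdx, glucose-6-phosphate dehydrogenase, of 0.07 (adjusted p 0.87). Me1, malic enzyme, had -0.13 (adjusted p 0.79).

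Genes near the threshold in KO LPS vs WT LPS were Osgin1, an oxidative stress-induced growth inhibitor (-0.70, SE 0.19, adjusted p 0.053), Cat, catalase (-0.50, SE 0.15, adjusted p 0.081) and Slc7a11 (-0.49, SE 0.16, adjusted p 0.093). Osgin1 stood at 37.8 and 26.8 TPM in KO LPS, against 54.1 and 50.5 in WT LPS, with an adjusted p of 0.031 without KO LPS replicate 1 and 0.327 without KO LPS replicate 2. Cat stood at 199 and 184 TPM in KO LPS, against 268 and 275 in WT LPS, and at 237 TPM in KO M0, against 212 and 246 in WT M0. The KO LPS libraries of Cat lay below, and the WT LPS libraries above, all libraries without LPS, while the difference between the LPS changes was -0.55 (SE 0.24, adjusted p 0.44). This pattern, KO LPS below KO M0 and WT LPS above WT M0 in every library, was shown by 3 of the 39 genes (Gclc, Cat and Taldo1), against 1.89% of all genes, and the opposite pattern by 1 (Prdx4), against 2.44%. Counted over the 39 genes, both KO LPS libraries lay below both WT LPS libraries for 21 (53.8%), against 21.0% of all genes tested, and above them for 6 (15.4%), against 28.7%. The ranges of the other 12 overlapped.

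The transcription factor and its regulators had no call between KO LPS and WT LPS. Nfe2l2 stood at 473 and 501 TPM in KO LPS, against 534 and 567 in WT LPS (log2 fold change -0.18, SE 0.16, limma adjusted p 0.61). Keap1 stood at 82.2 and 61.5 TPM in KO LPS, against 59.2 and 48.3 in WT LPS (0.41, SE 0.20, adjusted p 0.30). Bach1 (-0.35), the small Maf genes Maff (0.29) and Mafg (0.10), and Sqstm1 (-0.22), whose protein p62 binds Keap1, had adjusted p between 0.36 and 0.83. Transcript levels do not show the amount of Nrf2 protein.

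Slc7a11, Nqo1, Gclm, Gsr, Txn1, Prdx1, Prdx5, Sod2, Me1 and Pgd rose with LPS in both genotypes, and Bach1, Ephx1, Gpx1, Gpx4, Gstm1 and Sod1 fell in both. Of the 39 genes 12 rose and 6 fell in KO LPS vs KO M0, and 17 rose and 8 fell in WT LPS vs WT M0. Among all genes tested 38.1% were called in the knockout comparison (13.8% higher, 24.3% lower) and 44.6% in the wild-type comparison (15.0% higher, 29.6% lower), against 46.2% and 64.1% of the 39. At an unadjusted p under 0.05 were 22 of the 39 and 47.1% of all genes in knockout, and 27 of the 39 and 52.1% of all genes in wild type. These comparisons share no library, but the fit takes the spread of each gene from all libraries together, so they are not independent. Of the 39 genes 10 rose in both, 6 fell in both and none was called in opposite directions. The 10 that rose in both are 10 of the 12 knockout rises and 10 of the 17 wild-type rises. How many of all genes were called in both genotypes was not counted, so these joint counts do not set the list apart. KO M0 is 1 library, and the fit takes its variance from the other groups. The median gene had an LPS change of -0.24 in knockout and -0.21 in wild type, against 0.19 and 0.37 for the median of the 39, and median-ratio scaling moved the median gene to -0.0064 and 0.0076 and the median of the 39 to 0.45 and 0.61, with 16 rises and 3 falls in knockout and 21 and 4 in wild type. Over all genes that scaling gave 2110 rises and 1849 falls in knockout, against 1533 and 2700 as reported, and 2485 and 2288 in wild type, against 1665 and 3284.

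**Figure D3:**
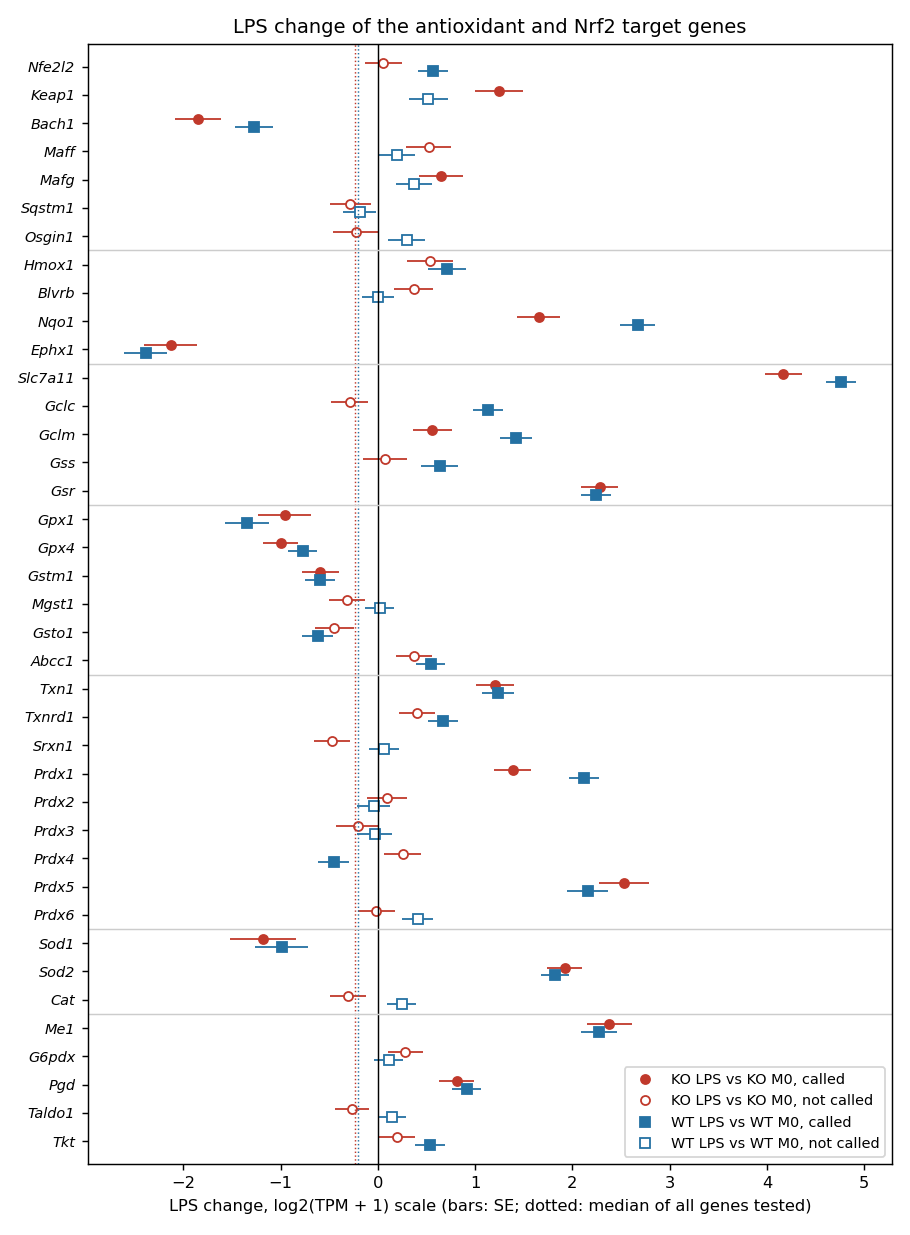
LPS change (log2 fold change on the log2(TPM + 1) scale, x axis, with SE) of the 39 tested genes in knockout cells (KO LPS vs KO M0, circles) and wild-type cells (WT LPS vs WT M0, squares), grouped by role, with filled symbols for an adjusted p under 0.05 and dotted lines at the median of all genes tested. Slc7a11 lies farthest to the right at 4.17 in knockout and 4.76 in wild type, Ephx1 farthest to the left at -2.13 and -2.38, and for Gclc the knockout circle at -0.29 lies apart from the wild-type square at 1.13.

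Slc7a11, the transporter that brings in cystine for glutathione synthesis, had the largest LPS change of the 39 genes in each genotype. It stood at 262 and 272 TPM in KO LPS, against 13.9 in KO M0, and at 365 and 388 TPM in WT LPS, against 12.01 and 13.9 in WT M0. The log2 fold changes were 4.17 (SE 0.19, limma adjusted p 2.5e-07) and 4.76 (SE 0.16, adjusted p 1.7e-08). Gsr, glutathione reductase, which recycles oxidised glutathione, stood at 485 and 479 TPM in KO LPS, against 98.3 in KO M0, and at 483 and 441 TPM in WT LPS, against 88.7 and 106 in WT M0 (2.28 and 2.24). For Gsr the LPS groups overlapped each other and lay far above the untreated libraries, with a KO LPS vs WT LPS difference of 0.06 (SE 0.15, adjusted p 0.89).

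Sod2, Prdx5 and Me1 were likewise high in both LPS groups. Sod2, the mitochondrial superoxide dismutase, stood at 1134 and 1185 TPM in KO LPS, against 306 in KO M0, and at 1104 and 1089 TPM in WT LPS, against 327 and 293 in WT M0. Prdx5, a peroxiredoxin of mitochondria and peroxisomes, stood at 3751 and 3423 TPM in KO LPS, against 618 in KO M0, and at 3736 and 3058 TPM in WT LPS, against 938 and 612 in WT M0. Me1 stood at 24.8 and 27.4 TPM in KO LPS, against 4.21 in KO M0, and at 26.0 and 31.4 TPM in WT LPS, against 5.36 and 4.87 in WT M0. The LPS log2 fold changes in knockout and wild type were 1.92 and 1.82 for Sod2, 2.53 and 2.16 for Prdx5, and 2.38 and 2.27 for Me1, all with limma adjusted p of 3.2e-05 or lower. Their KO LPS vs WT LPS differences were 0.08 (SE 0.15), 0.08 (SE 0.21) and -0.13 (SE 0.19), and none passed. Txn1, thioredoxin, rose by 1.21 (SE 0.20) and 1.24 (SE 0.16), and Pgd by 0.81 (SE 0.18) and 0.91 (SE 0.15).

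**Figure D4:**
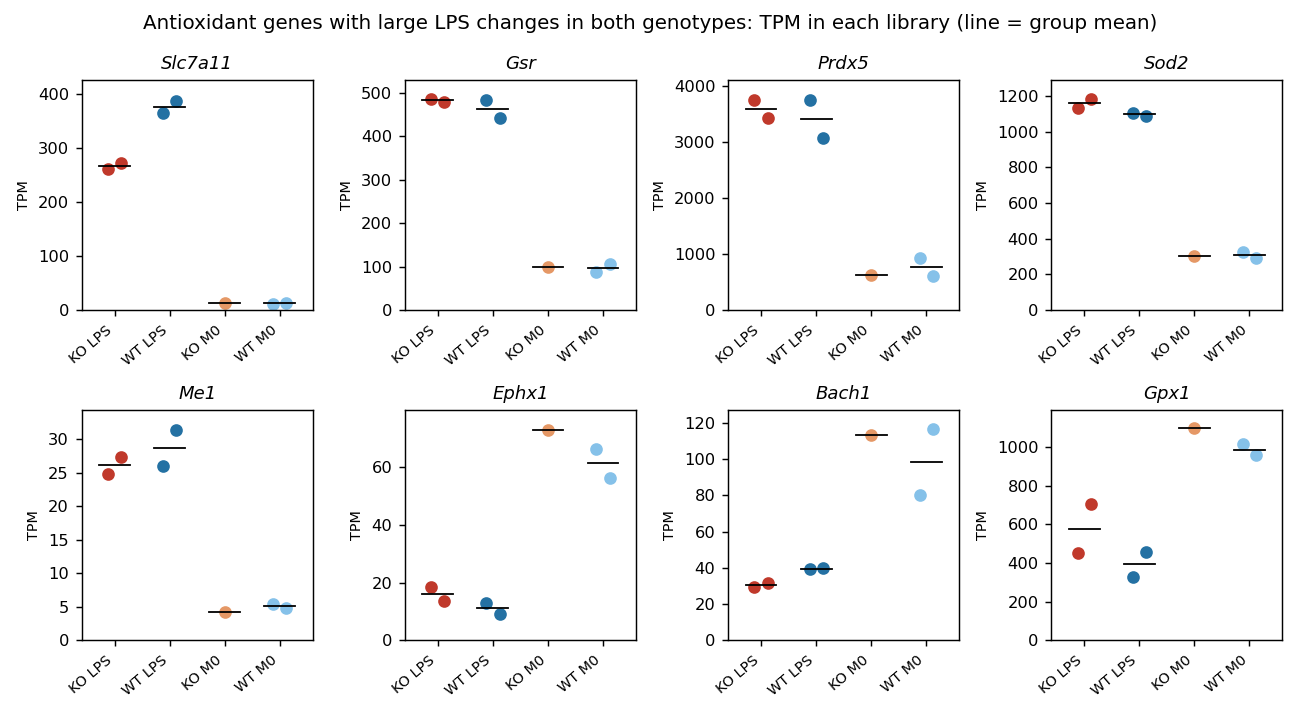
TPM (y axis, linear from 0) of 8 genes with large LPS changes in both genotypes, with a point for each library and a line at each group's mean; KO M0 is a single library. Slc7a11, Gsr, Prdx5, Sod2 and Me1 are high in both LPS groups, and Ephx1, Bach1 and Gpx1 are low there, as for Bach1 at 29.7 and 31.9 TPM in KO LPS and 39.1 and 39.8 in WT LPS, against 113 in KO M0 and 80.1 and 117 in WT M0.

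Bach1, the repressor that competes with Nrf2, fell with LPS by 1.85 (SE 0.24, limma adjusted p 0.00017) in knockout and 1.27 (SE 0.19, adjusted p 0.00041) in wild type. Keap1 stood at 29.4 TPM in KO M0 and at 41.0 and 33.3 in WT M0. It rose in knockout (1.25, SE 0.24, adjusted p 0.0026), and its wild-type change was 0.52 (SE 0.20, adjusted p 0.056, passing without KO LPS replicate 1 at 0.0468 or 2 at 0.0455, and with median-ratio scaling at 0.0265). Nfe2l2 stood at 469 TPM in KO M0, against 336 and 411 in WT M0. Its LPS change was 0.05 (SE 0.19, adjusted p 0.85) in knockout and 0.56 (SE 0.16, adjusted p 0.014) in wild type, where it missed the threshold without WT LPS replicate 1 (0.0619) or 2 (0.0941) or WT M0 replicate 1 (0.0811). The differences between the LPS changes, 0.72 for Keap1, -0.51 for Nfe2l2 and -0.57 for Bach1, did not pass (adjusted p 0.45, 0.53 and 0.57).

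Of the 6 genes for enzymes that use glutathione and for export, 3 fell and 0 rose with LPS in knockout, where 24.3% and 13.8% of all genes did, and 4 fell and 1 rose in wild type, where 29.6% and 15.0% did. Ephx1, microsomal epoxide hydrolase, which detoxifies epoxides without glutathione, stood at 18.5 and 13.6 TPM in KO LPS, against 72.9 in KO M0. In WT LPS it stood at 13.1 and 9.09 TPM, against 66.5 and 56.4 in WT M0. Its LPS change was -2.13 (SE 0.27, limma adjusted p 0.00015) in knockout and -2.38 (SE 0.22, adjusted p 1.2e-05) in wild type. Gpx1, the cytosolic glutathione peroxidase, stood at 451 and 705 TPM in KO LPS, against 1098 in KO M0, and at 330.4 and 456 TPM in WT LPS, against 1015 and 961 in WT M0. It fell by 0.96 (SE 0.28, limma adjusted p 0.0195) in knockout and 1.34 (SE 0.23, adjusted p 0.00076) in wild type. Gpx4, which reduces lipid peroxides, fell by 1.00 (SE 0.18) and 0.77 (SE 0.15), and Gstm1, a glutathione transferase with close paralogs, by 0.59 in each. Sod1, the cytosolic superoxide dismutase, fell by 1.18 (SE 0.34, adjusted p 0.019) and 0.99 (SE 0.27, adjusted p 0.014), with 218 and 111 TPM in its KO LPS libraries, the widest gap between replicates among the tested genes of the list (1.97 times). The calls of Sod1 (adjusted p 0.102 and 0.092) and Gstm1 (0.166 and 0.0745) were lost in both genotypes with median-ratio scaling, and that of Gpx1 in knockout (0.0903). Leaving out a library ended the knockout call of Sod1 (0.0588 without KO LPS replicate 2), Gstm1 (0.109 without that replicate, 0.0558 and 0.0559 without WT LPS replicate 1 or 2) and Gpx1 (0.0741 without KO LPS replicate 1). The fit with no filter ended the calls of Sod1 in knockout (0.117) and wild type (0.1002) and of Gpx1 in knockout (0.104). In wild type leaving out a library ended that of Sod1 (0.0689 without WT LPS replicate 2, 0.131 without WT M0 replicate 1) and Gstm1 (0.0577 and 0.0603 without WT LPS replicate 1 or 2).

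Other LPS calls were made in a single genotype. In wild type Hmox1 (0.71, limma adjusted p 0.013), Txnrd1, thioredoxin reductase (0.67, 0.0052), Gss (0.63, 0.018), the glutathione conjugate exporter Abcc1 (0.54, 0.014) and Tkt (0.53, 0.017) rose, and Gsto1, a glutathione transferase (-0.62, 0.011), and Prdx4 (-0.46, 0.036) fell. Their knockout changes were 0.54, 0.40, 0.08, 0.37, 0.19, -0.45 and 0.26 and did not pass, though Hmox1 passed without KO LPS replicate 2 (0.0215) and Txnrd1 (0.0270) and Abcc1 (0.0217) with median-ratio scaling. All 7 missed the wild-type threshold without WT LPS replicate 1, with adjusted p of 0.106, 0.0510, 0.109, 0.0822, 0.0773, 0.123 and 0.109. WT LPS replicate 2 left out also ended the calls of Abcc1 (0.0755), Tkt (0.0960) and Prdx4 (0.165), WT M0 replicate 1 those of Abcc1 (0.0703) and Tkt (0.0517), and WT M0 replicate 2 those of Hmox1 (0.0918), Gss (0.0905), Tkt (0.0588) and Prdx4 (0.143). Median-ratio scaling ended those of Gsto1 (0.0604) and Prdx4 (0.242), and the fit with no filter that of Hmox1 (0.0735). In knockout Mafg rose by 0.65 (adjusted p 0.044, 0.0584 without either WT LPS library and 0.102 with no filter), and its wild-type change was 0.37 (0.13, and 0.0432 with median-ratio scaling). The knockout rise of Gclm, which rose in both genotypes, was 0.56 (0.046, 0.0794 and 0.0796 without WT LPS replicate 1 or 2, and 0.0756 with no filter). Both missed the threshold without KO LPS replicate 1, at 0.186 and 0.156, and Mafg without WT M0 replicate 1 (0.0624) or 2 (0.0625). The 12 genes that passed in neither genotype were Prdx2, Prdx3, Prdx6, Blvrb, Mgst1, G6pdx, Sqstm1, Maff, Osgin1, Cat, Srxn1 and Taldo1, with LPS changes between -0.47 (Srxn1) and 0.52 (Maff) in knockout and between -0.19 (Sqstm1) and 0.41 (Prdx6) in wild type. With median-ratio scaling Maff (0.0198) and G6pdx (0.0390) passed in knockout and Prdx6 (0.00524) and Cat (0.0207) in wild type, and Prdx6 also with no filter (0.0486).

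Of those not yet given by level, Sqstm1 stood at 1777 and 1459 TPM in KO LPS, against 2039 and 1723 in WT LPS, and at 1962 TPM in KO M0, against 2298 and 1985 in WT M0. Blvrb, biliverdin reductase B, stood between 369 and 489 TPM over the 7 libraries, and Mgst1, a microsomal glutathione transferase, between 138 and 199. Prdx2, the cytosolic peroxiredoxin abundant in red cells, stood at 242 and 322 TPM in KO LPS, against 224 and 239 in WT LPS, and at 261 TPM in KO M0, against 237 and 240.2 in WT M0. Prdx3, the mitochondrial peroxiredoxin, stood between 42.6 and 57.0 TPM, and Prdx6, which reduces phospholipid peroxides, between 68.8 and 102.

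Without LPS no gene of the list passed between genotypes, which does not show that levels were alike. Of the 39 genes 0 passed limma in KO M0 vs WT M0 and 0 had an unadjusted p under 0.05, against 1 and 154 of all 11096 genes (0.00901% and 1.39%). Their log2 fold changes lay between -0.34 for Gss and 0.33 for Nfe2l2. KO M0 lay within the range of the WT M0 libraries for 17 genes, below it for 14 and above it for 8, against 39.7%, 24.0% and 36.2% of all genes tested.

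Further genes of these pathways came from lists that leave out the 40. In KO LPS vs WT LPS, of 21 tested further glutathione genes 3 were higher and 2 lower, against 4.59% and 2.58% of all genes tested. The 4 with the smallest p are named. Mgst3, a microsomal glutathione transferase (1.34, SE 0.21, limma adjusted p 0.0033), Gpx3, a secreted glutathione peroxidase (0.98, SE 0.17, adjusted p 0.0059), and Gstt2, a theta class glutathione transferase (1.14, SE 0.20, adjusted p 0.0060) were higher, and Gsta3, a glutathione transferase, was lower (-1.05, SE 0.24, adjusted p 0.024). Mgst3 stood at 17.6 and 14.1 TPM in KO LPS, against 5.93 and 5.37 in WT LPS, and Gpx3 at 29.6 and 30.02 TPM in KO LPS, against 13.1 and 16.4 in WT LPS. Without LPS Mgst3 stood at 36.0 TPM in KO M0, against 50.3 and 36.8 in WT M0, and Gpx3 at 155 TPM in KO M0, against 171 and 158 in WT M0. Both thus stood lowest in WT LPS. For Mgst3 the difference between the LPS changes passed (1.58, SE 0.33, adjusted p 0.049). Without WT M0 replicate 1 that test called 0 genes higher and 6 lower over all genes, so the Mgst3 call was lost. The differences of Gpx3 (1.06, SE 0.27, adjusted p 0.10) and Gstt2 (1.48, SE 0.31, adjusted p 0.051) did not pass.

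In the same comparison, for which 4.59% of all genes tested were called higher and 2.58% lower, the remaining lists gave these counts. Of 22 further detoxifying and haem enzymes 0 were higher and 4 lower. Akr1b8, an aldo-keto reductase, stood at 45.3 and 44.6 TPM in KO LPS, against 114 and 111 in WT LPS (-1.31, SE 0.15, limma adjusted p 0.00054). Without LPS it stood at 136 TPM in KO M0, against 157 and 142 in WT M0. Its LPS change was -1.58 (adjusted p 8.2e-05) in knockout and -0.40 (adjusted p 0.049) in wild type. The difference between these LPS changes passed (-1.17, SE 0.24, adjusted p 0.044). How Akr1b8 fared in the other fits is not given. Ptgr1, which reduces prostaglandin and leukotriene intermediates, stood at 41.9 and 35.0 TPM in KO LPS, against 90.0 and 88.3 in WT LPS (-1.20, SE 0.17, adjusted p 0.0018). The LPS change of Ptgr1 was 0.502 in knockout (adjusted p 0.079) and 1.535 in wild type (adjusted p 4.2e-05). Cbr3, a carbonyl reductase (-0.70, adjusted p 0.040), and Por, cytochrome P450 reductase (-0.60, adjusted p 0.040), were also lower. The LPS changes in knockout and wild type were -0.73 and -0.23 for Cbr3 (adjusted p 0.023 and 0.32), and -1.85 and -1.28 for Por. Of 14 further thioredoxin and methionine sulfoxide genes 2 were lower, the sestrin Sesn1 (-1.12, SE 0.23, adjusted p 0.017) and the thioredoxin inhibitor Txnip (-0.72, SE 0.15, adjusted p 0.018). Their LPS changes in knockout and wild type were -2.94 and -1.98 for Sesn1, and -1.15 and -0.38 for Txnip (adjusted p 0.00081 and 0.067). The difference between the LPS changes did not pass for Ptgr1, Cbr3, Por, Sesn1 or Txnip (adjusted p 0.11, 0.61, 0.42, 0.35 and 0.22). Of 11 genes of Nrf2 partners and degradation and 12 further NADPH supply genes 0 passed in either direction, and of 7 NADPH oxidase genes, which make superoxide, 1 did: Rac2, higher by 0.62 (SE 0.14, adjusted p 0.027).

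The summed marker levels of 6 other cell type lists did not overlap between KO LPS and WT LPS. Those of the T cell, erythroid, and mast cell and basophil lists did. Of all single genes tested, 21.0% lay lower in both KO LPS libraries than in both WT LPS libraries, and 28.7% lay higher. Neutrophil and granulocyte markers summed to 59.2 and 66.2 TPM in KO LPS, against 92.4 and 91.7 in WT LPS, nearly all from Mmp8 and Camp, with Elane and Ltf at 0 in these 4 libraries. Endothelial markers summed to 38.5 and 39.3 TPM in KO LPS, against 13.1 and 7.47 in WT LPS, nearly all from Kdr, with Emcn at 0 in these 4. Stromal markers summed to 30.0 and 25.2 TPM in KO LPS, against 21.0 and 23.3 in WT LPS, mostly from Pdgfrb, while Col1a1 stood at 1.18 and 1.57 TPM in KO LPS and at 0 in both WT LPS libraries. Conventional dendritic cell markers summed to 4.13 TPM in each KO LPS library, against 2.95 and 1.48 in WT LPS, and B cell markers to 0.336 and 0.902 TPM, against 0.0671 and 0.0540 in WT LPS. Megakaryocyte markers summed to 1.501 and 2.48 TPM in KO LPS, against 3.11 and 3.25 in WT LPS. Their part in the differences was not tested, and in bulk RNA fewer cells of a type and less RNA per cell cannot be told apart.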

How the data were processed

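The authors deposited a table of values per gene, without a named unit, for each of 7 libraries. The deposited values were taken as TPM, scaled by the authors for length and to a common sum, because each library sums to 1000000 and the smallest values above 0 differ between genes. The submitters' processing notes name mm10 as the build. Aligner, quantification tool, annotation and strandedness were not given in the sources used here, so genes with near-identical copies are uncertain.

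Genes with a mean of at least 1 TPM were kept (11096 of 23337). On log2(TPM + 1), which understates changes of low genes, limma 3.58.1 (R 4.3.3) estimated the 4 group means from the 7 libraries together. Variances were moderated along a trend, with 3 residual and 7.3 prior degrees of freedom, and p-values adjusted by Benjamini-Hochberg, at 0.05. The 5 two-sided comparisons were knockout against wild type with and without LPS, LPS against none in each genotype, and the difference between the LPS changes. The fit was also run on simulated data with independent normal noise and the same spread in every group. That run takes these assumptions as given and cannot check them for these libraries.

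The 40 genes and the other lists were chosen with earlier results of these data known. TPM in every library and the log2 fold change are given for genes called between genotypes and, per genotype, the 10 with the largest called LPS changes. From the other lists up to 4 with the smallest p are named. Coordinates and promoters are from RefSeq (GRCm38.p6, on which mm10 is built); figures used matplotlib 3.10.9. Alternatives were a pseudocount of 0.1, no filter, median-ratio scaling, a threshold of 0.01, each library left out, a fit without both WT LPS libraries and the replicate number as a block.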

Additional observations from a re-analysis of the deposited data

Results flagged for a closer look

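Gclc was noted because its LPS change differed between genotypes by the test of that difference: on the log2 scale the difference, knockout minus wild type, was -1.42 (SE 0.24, limma adjusted p 0.023), from -0.29 in knockout and 1.13 in wild type. The adjusted p was between 0.027 and 0.115 over 9 alternatives, under 0.05 in 3 of them.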

How the results depend on the processing

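Of 52 calls of single genes over the 5 comparisons 30 kept an adjusted p under 0.05 in every other fit run, 2 of 8 for KO LPS vs WT LPS, 13 of 18 for KO LPS vs KO M0, 15 of 25 for WT LPS vs WT M0 and 0 of 1 for the difference between the LPS changes. No call changed direction. Of the 39 genes 8 were called in KO LPS vs WT LPS, but 4 at an adjusted p of 0.01 and 2 with no filter; for the difference between the LPS changes the count went to 0 under each of these. Leaving out 1 library gave 2 to 8 for KO LPS vs WT LPS (3 when KO LPS replicate 2 was left out, 2 when either WT LPS library was), 16 to 26 for WT LPS vs WT M0 (16 without WT LPS replicate 1), 0 to 1 for the difference, 15 to 17 for KO LPS vs KO M0 and 0 for KO M0 vs WT M0. Over all genes the counts were 795 for KO LPS vs WT LPS (362 at 0.01, 307 with no filter, 399 to 800 with a library left out), 1 for KO M0 vs WT M0 (2 with a pseudocount of 0.1, 20 with no filter, 1 to 3), 4233 for KO LPS vs KO M0 (2681 at 0.01) and 152 for the difference (28 at 0.01, 92 with a pseudocount of 0.1, 10 with no filter, 6 to 146, the 6 without WT M0 replicate 1). Without both WT LPS libraries KO LPS vs KO M0 called 15 of the 39 genes and 4102 genes. Whether the replicate numbers of the titles pair the libraries is not known. The differences of replicate 1 minus 2 correlated across genes at 0.181, 0.298 and 0.0804 between groups, which does not decide it. With the replicate number as a block, over 6 libraries, KO LPS vs WT LPS called 10 of the 39 genes and 1109 genes, and WT LPS vs WT M0 called 27 and 5664. The added calls were Osgin1 (adjusted p 0.0269) and Slc7a11 (0.0453), lower in KO LPS than in WT LPS, and Keap1 (0.0106) and Prdx6 (0.0256), higher in WT LPS than in WT M0. The causes were not tested. Without counts, depth gives no limit on single values.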
